A study of Drosophila melanogaster with 13 samples.

Results

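The genes grh, slp1, btd, eg and Blimp-1, which encode DNA-binding transcription factors of development, were followed in testes of Drosophila melanogaster. They were chosen by name among the few targets of the array that could be matched to a gene symbol, with their levels on these arrays already known. The array carries 8 probes for these 5 genes, of 32162 probes for 25796 targets (genes, transcripts or cDNA clones) in all, or 25782 once targets of the same gene are merged. A probe was assigned through the transcript or cDNA clone that the array names for it. Of the 8 probes 6 were well above background throughout the arrays of 1 genotype or more, and each of the 5 genes kept at least 1 such probe.

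RNA was measured on 13 single-colour arrays, each hybridised with RNA pooled from 80 testes of males aged 0 to 2 days and raised at 25 °C. The dany males (3 arrays) were w[1118]/Y and carried Df(2R)BSC802, a deficiency on the right arm of the second chromosome, over the allele dany[ex11]. The sa males (2 arrays) were +/Y with a th sa[1] red chromosome over a ru h sa[2] ca chromosome. The aly males (2 arrays) were w*/Y with aly[2] red e over aly[5] red e. The topi males (2 arrays) were +/Y; bw with topi[Z3-0707] over topi[Z3-2139]. Control males (4 arrays) were w[1118]/Y and carried the same Df(2R)BSC802 over a wild-type chromosome. Control and dany thus shared the deficiency, while sa, aly and topi came from other backgrounds and had no control of their own. No probe was identified for any of the mutated genes, so the labels were not checked against them. The series asked how the testis transcriptome of dany mutants compares with that of representative meiotic arrest mutants.

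Spermatocytes transcribe a large share of the genome before meiosis, and many genes needed in spermatids depend on the testis meiotic arrest complex (tMAC), to which aly and topi contribute, and on testis-specific TAFs such as sa. Loss of aly, topi or sa stops germ cells as mature spermatocytes. The 5 factors followed here are known mainly from other tissues. grh (grainy head) encodes the founder of the Grainyhead family, which activates epidermal barrier and wound response genes. slp1 (sloppy paired 1) encodes a forkhead factor of embryonic segmentation. btd (buttonhead) encodes a zinc finger factor of the Sp family that patterns the embryonic head. eg (eagle) encodes a zinc finger factor of the Knirps group of nuclear receptor-like proteins, known for serotonergic neuron identity. Blimp-1 encodes a zinc finger repressor whose decay times the response to the moulting hormone ecdysone.

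In the RefSeq gene table (Release 6 of the genome) grh lies on chromosome arm 2R, slp1 on 2L, btd on the X, and eg and Blimp-1 on 3L. The array design was annotated to an earlier build, so no positions are given. The table lists 8 transcripts for grh, 6 for Blimp-1, 3 for eg and 1 each for slp1 and btd. The 3 grh probes were made to 1 cDNA clone, LD38807, and the 2 Blimp-1 probes to 1 transcript. Which transcripts of grh, eg and Blimp-1 a probe detects was not tested.

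The signal of a probe is given as a percentage of the 75th percentile of the signals on its array, or as the log2 of that ratio. Differences are on this log2 scale, with the standard error (SE) of a linear model fitted to all arrays with limma. A gene was counted as higher or lower where the arrays of the compared genotypes did not overlap and their means differed by at least 2-fold. Because the members were chosen with these levels known, they are described with no test. By this count eg was higher and grh lower in dany than in control, where 27.3% of the 19758 tested targets were higher and 18.4% lower. In sa slp1 was higher while grh and eg were lower (28.1% and 18.4% of all targets). In aly btd was higher while grh and eg were lower (39.3% and 20.9%). In topi grh and eg were lower (22% of all targets), and no member was higher (43.1%). Nothing is read from these counts, since the choice of members used the same arrays. In addition, grh was kept through the control arrays alone, which favours a count as lower in every mutant. btd was kept through the sa and aly arrays alone, which favours a count as higher there. The 4 comparisons share the control arrays.

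The array as a whole differed between genotypes in ways that touch these values. Of all probes, those above background made up 75.3% to 76.5% for dany, 68.7% to 72.6% for sa, 64.5% to 66.5% for aly and 62.4% to 64.5% for topi, against 60.9% to 69.1% in control. The median difference from control over all tested targets was 0.06 for dany, 0.43 for sa, 0.77 for aly and 0.81 for topi, so a member at 0 lay below the typical target of aly and topi. Hybridisation used 4 slides, read on 3 scan days. On slide 1 were dany 1, sa 1, aly 1 and control 1. On slide 2 were aly 2, topi 1 and control 2. On slide 3 were dany 2, sa 2, topi 2 and control 3, and on slide 4 dany 3 and control 4. The slide 1 array gave the highest eg and btd levels of its genotype in all 4 genotypes it held, and the lowest slp1 and Blimp-1 levels. Values within slides are therefore given beside each result. Whole testes were measured, so fewer cells of a type and less RNA per cell cannot be told apart.

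**Figure D1:**
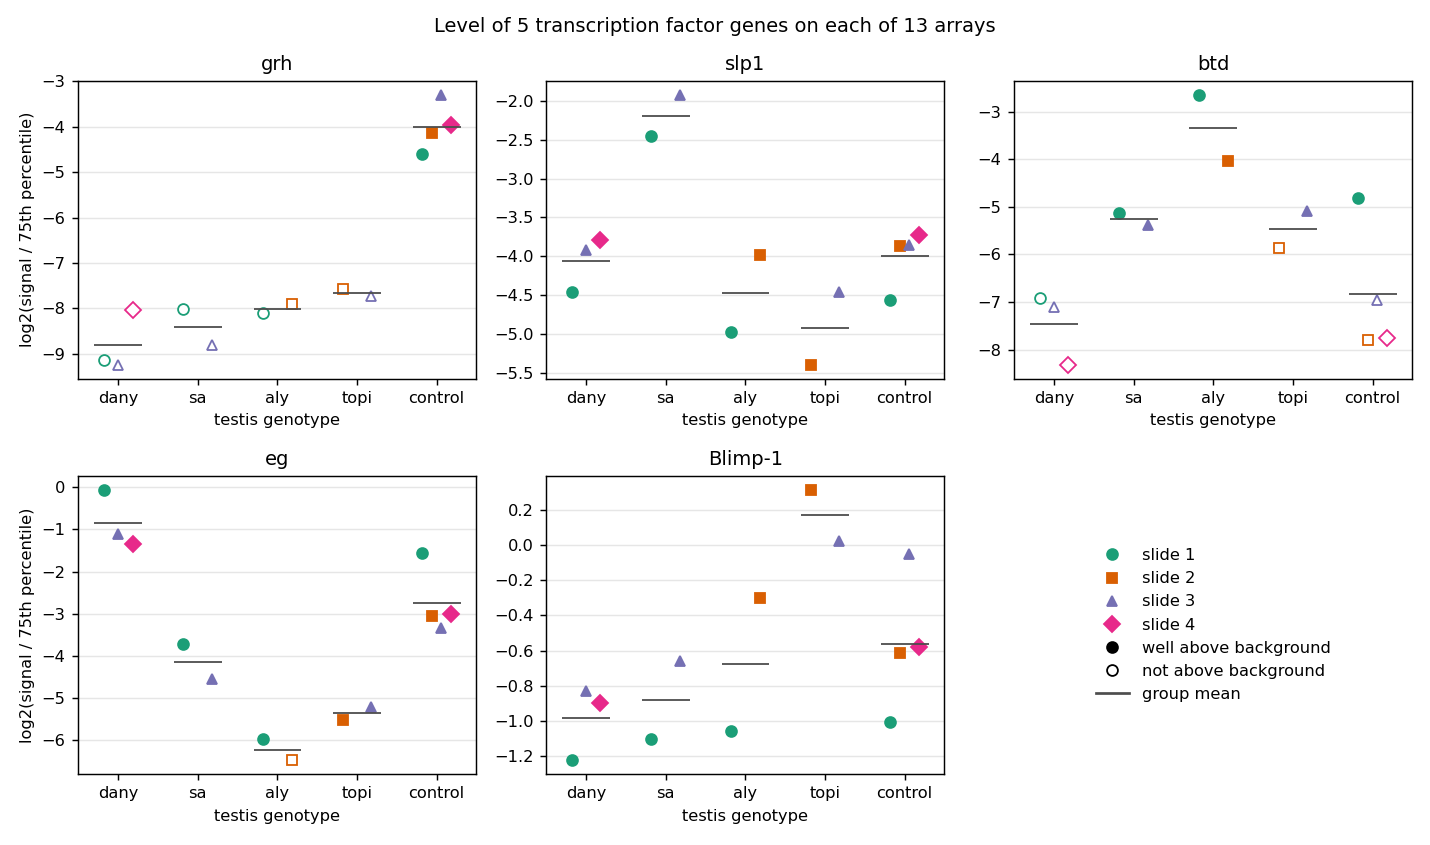
Level of each gene on each array, as log2 of the signal over the array's 75th percentile (y axis), by testis genotype (x axis). Shape and colour give the slide, open symbols arrays on which the probe did not stand well above background, and bars group means. For grh the 4 control arrays lie between -4.59 and -3.29, and all mutant arrays at -7.58 or below with open symbols.

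grh stood above background in control testes alone. Its brightest probe had a signal of 0.177%, 0.164% and 0.380% of the 75th percentile on the dany arrays, 0.385% and 0.225% for sa, 0.361% and 0.415% for aly, and 0.522% and 0.470% for topi, against 4.15%, 5.65%, 10.2% and 6.47% in control. The probe stood above background on all 4 control arrays and on none of the 9 mutant arrays, and the signal of the mutants did not overlap that of control. It thus passed the filter on dim probes through control alone. A mutant signal that is not above background gives no measured fold. With the floor described next, grh was 14.1-fold lower than control in dany, 8.48-fold for sa, 6.53-fold for aly and 5.21-fold for topi. For each mutant array these folds use the lowest signal that stood above background there, or the probe's own signal where that was higher. They therefore differ with the floor of each array, and their order is no order of grh levels. That floor is the lowest over all probes of an array, and a probe can lie above it without standing above background. On dany 2 btd did so, with a signal of 25.5 against a floor of 13.5. The folds are thus no strict lower bounds, and the normexp differences given below are smaller. On the log2 scale the measured means were -8.81 ± 0.668 (SD, n = 3) for dany, and, with n = 2 each, -8.41 ± 0.549 for sa, -8.01 ± 0.141 for aly and -7.66 ± 0.108 for topi, against -3.99 ± 0.541 (SD, n = 4) in control.

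Within slides grh was lower in the mutant in all 9 pairs of a mutant and a control array, by log2 differences of -5.96 to -3.43. The common direction follows from the lack of overlap and is no further result. The size of the difference moved with the background correction, as the measured values of the mutants lie at the floor. With normexp background correction it was -2.08 for dany (SE 0.21), -1.52 for sa (SE 0.24), -1.37 for aly (SE 0.24) and -1.04 for topi (SE 0.24), and in the deposited log2 values it was -2.76, -2.77, -2.59 and -2.36.

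The other 2 probes of the grh clone gave no signal above background on any of the 13 arrays. Their group means lay between -8.34 and -7.32 in all 5 genotypes, control included. The signal in control testes thus rests on 1 of 3 probes of the clone. Which exon or strand each probe covers is not known from the files, and the reason for the difference between probes was not tested. The other genes known to act with or under grh could not be followed: of 20 listed partners and described targets 1 was matched, and it did not pass the filter on dim probes.

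**Figure D2:**
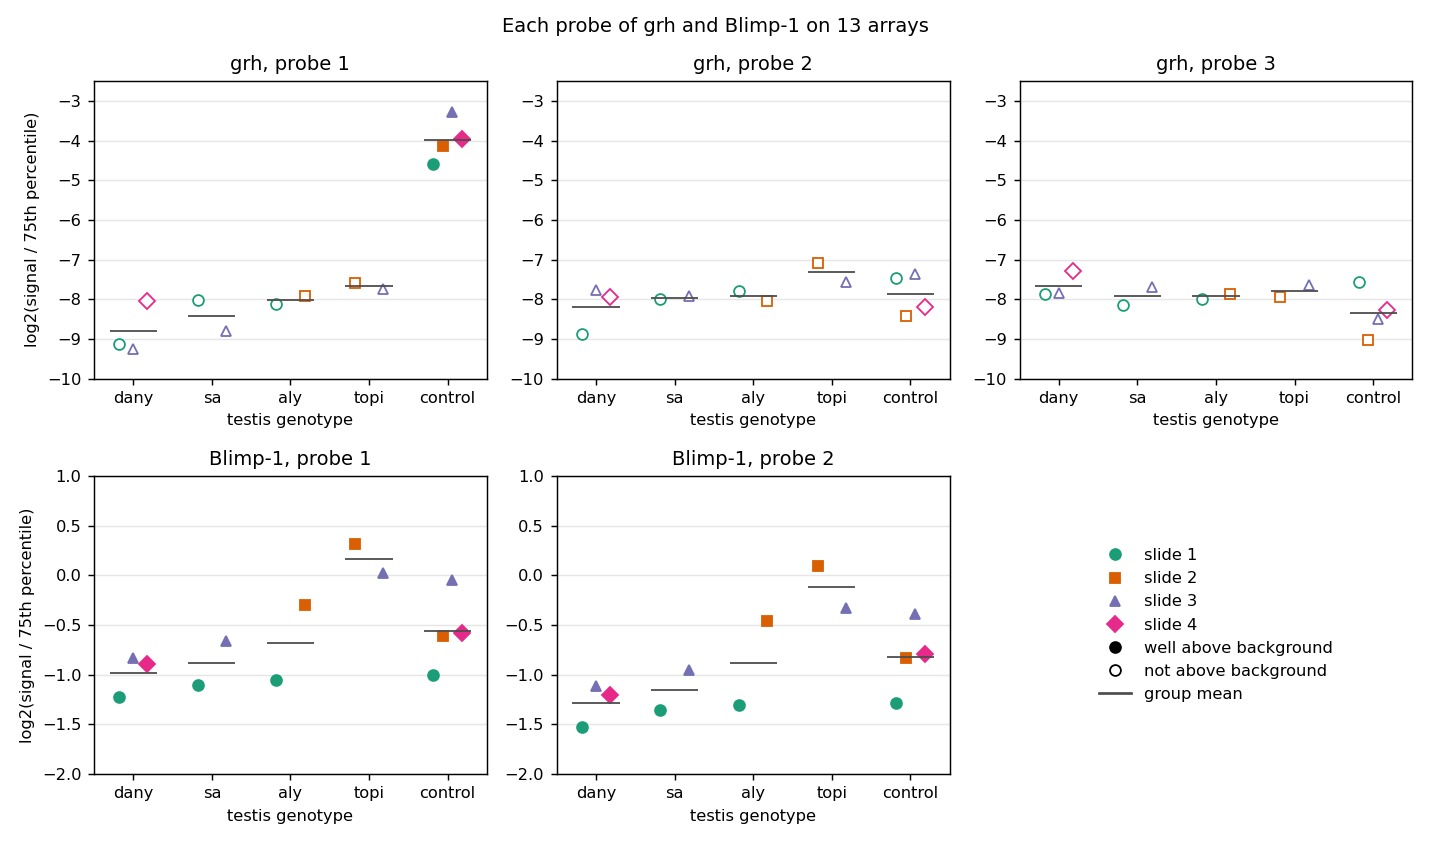
The 3 probes of grh (top row) and the 2 probes of Blimp-1 (bottom row) on each of 13 arrays, as log2 of the signal over the array's 75th percentile (y axis), by testis genotype (x axis). Shapes, open symbols and bars are as for the plot of all members. One grh probe has filled symbols, in control alone, while both Blimp-1 probes are filled on every array.

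eg was the member with differences in opposite directions. Its signal was 96.0%, 46.2% and 39.6% of the 75th percentile in dany, 7.65% and 4.25% for sa, 1.60% and 1.13% for aly, and 2.19% and 2.68% for topi, against 33.8%, 12.0%, 9.97% and 12.4% in control. All dany arrays lay above the control arrays, and all arrays of sa, aly and topi lay below them. The gap to dany was narrow, since control 1 at 33.8% came close to dany 3 at 39.6%. The probe stood above background on 12 of the 13 arrays, with aly 2 as the exception.

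Relative to control, eg differed by 1.90 for dany (SE 0.45, 3.74-fold higher), by -1.39 for sa (SE 0.51, 2.63-fold lower), by -2.63 for topi (SE 0.51, 6.17-fold lower) and by -3.48 for aly (SE 0.51, 11.2-fold lower). Set against the averaged sa, aly and topi testes, eg in dany was higher by 4.40 (SE 0.42), with no overlap of the arrays (21.3% of all targets were higher by that count). From high to low the genotypes stood in the order dany, control, sa, topi and aly. No 2 neighbours in this order overlapped, but aly and topi differed by -0.85 (SE 0.59), which is within 2 standard errors. sa was above the mean of aly and topi by 1.66 (SE 0.51).

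Within slides the direction of eg held in each pair, which follows from the lack of overlap with control and is no further result. The dany array exceeded the control array by 1.51 on slide 1, 2.21 on slide 3 and 1.68 on slide 4. The sa array was lower by log2 differences of -2.14 and -1.23, the aly array by -4.40 and -3.42, and the topi array by -2.46 and -1.89. Control 1 and dany 1, both on slide 1, were each the highest of their genotype. The count for dany depended on the scaling: with median scaling (1.15), quantile normalization (1.60) and the deposited values (1.52) a control and a dany array overlapped. The difference in sa was -0.97 without sa replicate 2 and then short of 2-fold. For aly and topi the size depended on the background correction. Under normexp eg differed from control by -1.96 in aly (SE 0.43) and by -1.54 in topi (SE 0.43), still without overlap.

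Markers of other cell types were also followed where they could be matched. Of 9 listed neuronal genes 2 were tested, and of 12 listed gut genes 3. Of the neuronal genes, the potassium channel gene Sh and the acetylcholine receptor gene nAChRalpha6 were tested, and neither was above background in control. Their summed signal was 6.69% to 17.2% for dany, 6.91% to 13.4% for sa, 16.2% to 18.4% for aly and 16.4% to 16.9% for topi, against 0.673% to 1.38% in control. Both were above background on every dany and sa array. As both passed the filter on dim probes through mutant arrays alone, nothing is read from their higher sum in the mutants. In aly and topi the sum was nearly all nAChRalpha6 (15.3% to 17.1%), and Sh was below background there on all 4 arrays.

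Of the gut genes Jon65Aiii, epsilonTry and LysE were tested, with sums of 78.9% to 91.4% for dany, 3.77% to 6.39% for sa, 5.11% to 6.43% for aly and 79.2% to 121% for topi, against 2.76% to 4.88% in control. All 3 stood above background on every dany array. However, epsilonTry passed the filter on dim probes through the dany arrays alone, and LysE through mutant arrays alone. In topi the sum was nearly all LysE (119% and 77.2%), and Jon65Aiii and epsilonTry were below background on both arrays. The part of such cells in the levels of eg was not tested.

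**Figure D3:**
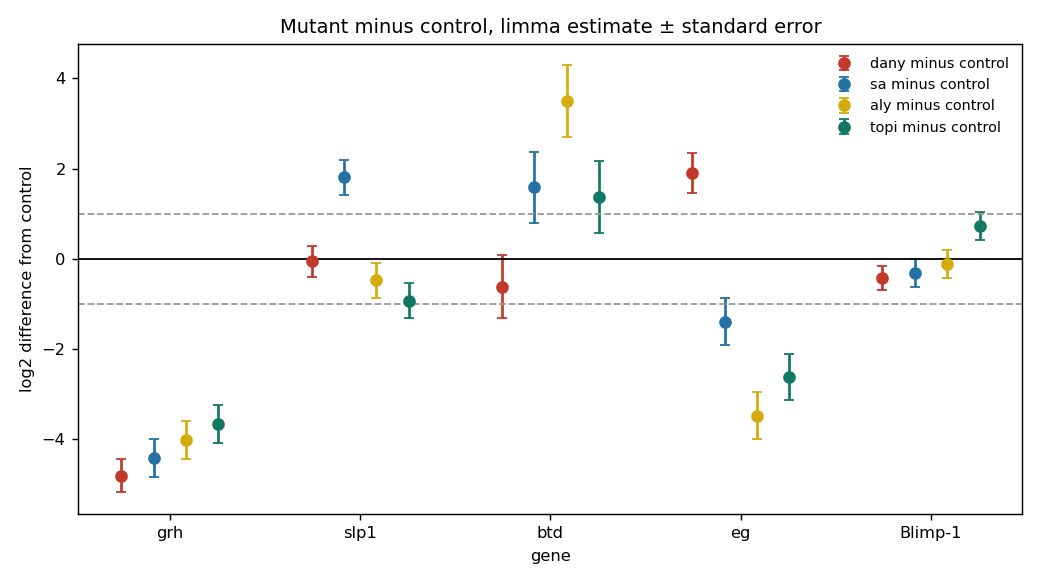
Difference of each mutant from control (y axis, log2) for each gene (x axis), as the limma estimate, with error bars of 1 standard error. Dashed lines mark a 2-fold difference. eg lies above 0 for dany and below 0 for sa, aly and topi, slp1 stands out in sa and btd in aly, and the 4 Blimp-1 estimates lie between -0.42 and 0.73.

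slp1 was higher in sa testes than in the other genotypes. Its signal was 4.53%, 6.62% and 7.21% of the 75th percentile in dany, 18.2% and 26.4% for sa, 3.18% and 6.34% for aly, and 2.37% and 4.55% for topi, against 4.22%, 6.87%, 6.94% and 7.58% in control. The probe stood above background on all 13 arrays. Both sa arrays lay above the 11 others, while dany, aly and topi overlapped control.

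The difference of slp1 from control was 1.81 for sa (SE 0.39, 3.51-fold higher), -0.06 for dany (SE 0.34), -0.48 for aly (SE 0.39) and -0.93 for topi (SE 0.39). sa was above the mean of aly and topi by 2.52 (SE 0.39). Within slides sa exceeded control by 2.11 on slide 1 and 1.93 on slide 3. The 3 dany differences within slides were 0.10, -0.07 and -0.07, and the aly differences -0.41 and -0.12. Those of topi were -1.54 and -0.61. With control 1 or topi 2 left out, topi lay below control without overlap (-1.12 and -1.40). The sign in dany followed the scaling, from -0.82 with median scaling to 0.63 with spike-in scaling, while sa stayed between 1.36 and 2.08 under all alternatives tried.

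btd was higher in aly testes and dim elsewhere. Its signal was 0.823%, 0.726% and 0.312% of the 75th percentile in dany, 2.87% and 2.41% for sa, 16.0% and 6.11% for aly, and 1.73% and 2.96% for topi, against 3.58%, 0.447%, 0.800% and 0.461% in control. The probe stood above background on both sa arrays, both aly arrays, 1 of 2 topi arrays and 1 of 4 control arrays, and on no dany array. It thus passed the filter on dim probes through sa and aly alone. Both aly arrays exceeded the other 11, and the sa and topi arrays fell between control 1 and the other 3 control arrays.

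Relative to control, btd differed by 3.50 for aly (SE 0.79, 11.3-fold), by 1.58 for sa (SE 0.79), by 1.37 for topi (SE 0.79) and by -0.62 for dany (SE 0.70). As 3 of the 4 control arrays were not above background, these sizes depend on the floor: with normexp background correction the difference in aly was 1.33 (SE 0.29) and in the deposited values 2.28 (SE 0.33). Control 1, on slide 1, set the overlap of control with sa and topi. Without it sa and topi did not overlap control, and the measured differences were 2.26 for sa and 2.04 for topi. The 3 remaining control arrays were all below background, so these differences give no fold. Within slides aly exceeded control by 2.16 and 3.77 and topi by 1.95 and 1.89, while sa gave -0.32 on slide 1 and 1.59 on slide 3. aly exceeded topi by 2.13 (SE 0.92). dany minus the averaged sa, aly and topi gave -2.77 (SE 0.65), with no overlap of the arrays (26.1% of all targets were lower by that count). As dany was below background on every array, this is a difference of measured values and gives no fold. With spike-in scaling those arrays overlapped (-1.89).

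**Figure D4:**
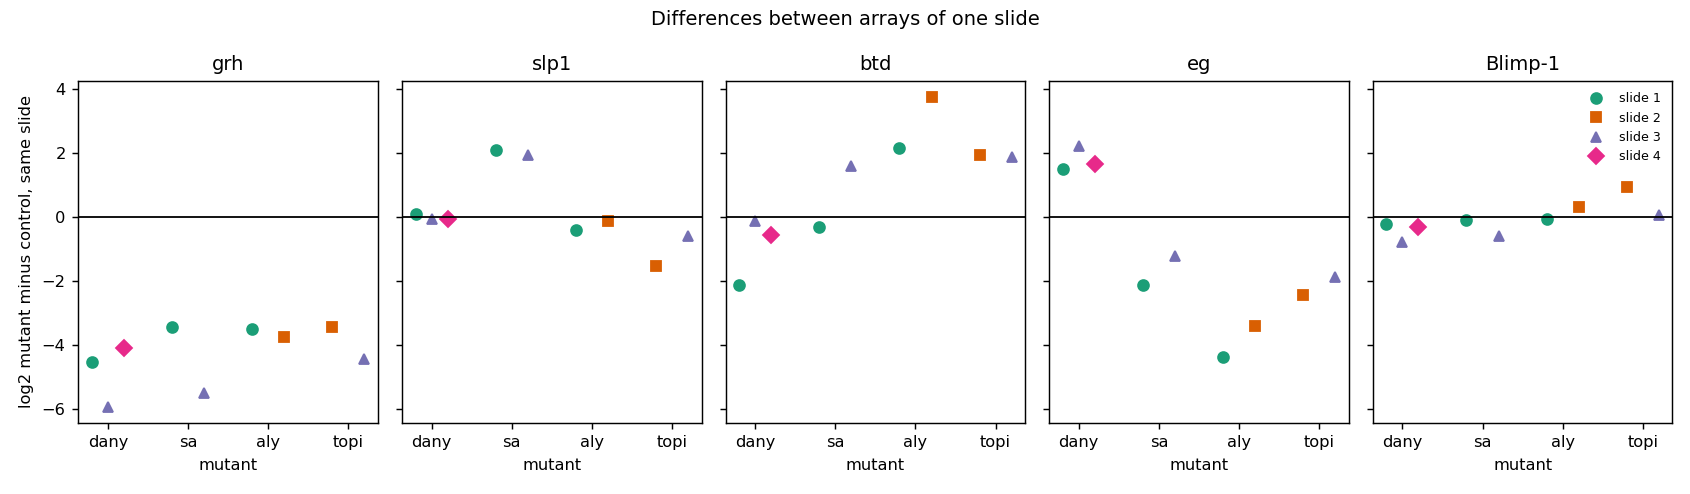
Difference between a mutant and the control array of the same slide (y axis, log2) for each gene (panels) and mutant (x axis), with 1 point per slide. All 9 grh points lie below 0, the 3 dany points of eg above 0 and its other 6 points below, and the btd point of sa on slide 1 at -0.32 lies against the one on slide 3 at 1.59.

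Blimp-1 was bright in every genotype and differed least. On its brighter probe the signal was 42.8%, 56.2% and 53.7% of the 75th percentile in dany, 46.6% and 63.3% for sa, 48.1% and 81.3% for aly, and 124% and 102% for topi, against 49.9%, 65.4%, 96.6% and 66.9% in control. Both topi arrays lay above all others, with topi 2 close to control 3, and the other mutants overlapped control. The difference from control was -0.42 for dany (SE 0.27), -0.32 for sa (SE 0.31), -0.12 for aly (SE 0.31) and 0.73 for topi (SE 0.31, 1.66-fold), none of them 2-fold.

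The second Blimp-1 probe gave nearly the same differences, -0.46, -0.33, -0.06 and 0.71 for dany, sa, aly and topi. Both probes stood above background on all 13 arrays. The estimate in topi stayed between 0.54 and 0.90 under the alternatives tried, but on slide 3 topi exceeded control by only 0.07, against 0.93 on slide 2. The sign in dany followed the scaling, with -1.18 under median scaling, where dany lay below control without overlap, and 0.27 under spike-in scaling. Of 24 further genes listed for the ecdysone response, in which Blimp-1 acts, 1 was matched and it did not pass the filter.

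A list of 285 further transcription factor genes was searched for on the array, of which 9 were matched to a probe. This list and the marker lists were drawn up with earlier results of these data known, and the adjusted p-values below carry that limit. E(spl)mbeta-HLH, Mef2, cnc, shn and ss did not stand above background on every array of any genotype. CrebA, croc, hth and jim entered the limma fit, with an adjusted p under 0.05 (Benjamini-Hochberg over all targets) and at least a 2-fold difference as the call. croc passed the filter only through the dany arrays and was below background on every other array, so it is described with no test. Of the other 3, 1 rose (jim) and 1 fell (CrebA) in dany, where 28% of all targets rose and 15.6% fell (43.6% in all). In aly 1 rose (hth; 39.2% of all targets) and in topi 1 (hth; 42%), and none fell (20.5% and 21.4%). In sa limma called none of the 3 (26.9% of all targets rose and 14.8% fell), and 1 of them, CrebA, was lower at an unadjusted p under 0.05. No gene was lower at that level in aly or topi, while 1 of the 3 was higher in aly and 2 in topi. Calls in either direction made up 41.7% of targets in sa, 59.6% for aly and 63.4% for topi.

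jim, a zinc finger gene, was the brightest of them, with a signal of 603%, 782% and 662% of the 75th percentile in dany, 290% and 388% for sa, 195% and 292% for aly, and 287% and 233% for topi, against 220%, 330%, 350% and 265% in control. The dany arrays lay above all others. jim rose in dany by 1.24 (SE 0.235, limma adjusted p = 0.00105) and gave 0.23, -0.26 and -0.15 for sa, aly and topi (adjusted p = 0.493, 0.394 and 0.633). Set against the averaged sa, aly and topi testes it was higher in dany by 1.31 (SE 0.217, adjusted p = 0.000312), in a comparison that called 62.9% of targets, 29.1% as higher. With median scaling jim in dany was at 0.49 (adjusted p = 0.222).

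croc (crocodile), a forkhead gene of head development, stood above background on the 3 dany arrays and on no other. Its signal was 1.37%, 1.79% and 1.53% for dany, 0.728% and 0.726% for sa, 0.535% and 0.796% for aly, and 0.720% and 0.915% for topi, against 0.527%, 0.303%, 0.204% and 0.254% in control. All dany arrays lay above the others. With each control array taken at its lowest signal above background, croc was 2.04-fold higher in dany than in control. As for grh, this fold holds for that floor alone and is no strict lower bound. The size rests on the floor: the difference of the measured values was 2.37, but 0.95 in the deposited values and -0.05 under normexp. Between sa, aly or topi and control no fold is given, as croc was below background on every array of both.

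hth (homothorax), a homeobox gene, had a signal of 2.20%, 2.60% and 3.47% for dany, 1.47% and 2.71% for sa, 3.04% and 4.89% for aly, and 5.74% and 4.46% for topi, against 1.43%, 1.58%, 3.09% and 1.46% in control. The topi arrays lay above all control arrays, and aly overlapped control. hth rose in aly by 1.11 (SE 0.387, limma adjusted p = 0.0258) and in topi by 1.50 (SE 0.387, adjusted p = 0.00519), with 0.60 for dany and 0.16 for sa (adjusted p = 0.159 and 0.748). The call in aly ended without control replicate 1, 2 or 4 (adjusted p = 0.0521, 0.0542 and 0.0567) or without aly replicate 2 (0.77, adjusted p = 0.207). It also ended with normexp (0.33, adjusted p = 0.185), quantile normalization (1.00, adjusted p = 0.0866), spike-in scaling (0.63, adjusted p = 0.558) and the deposited values (0.73, adjusted p = 0.0743). The call in topi ended with normexp, where the difference of 0.67 was short of 2-fold (adjusted p = 0.0117), and with spike-in scaling (1.48, adjusted p = 0.113).

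CrebA, a leucine zipper gene of secretory cells, had a signal on its brighter probe of 3.46%, 4.90% and 3.47% for dany, 3.18% and 6.99% for sa, 8.15% and 12.3% for aly, and 16.5% and 11.8% for topi, against 7.91%, 7.81%, 10.0% and 7.34% in control. All dany and sa arrays lay below the control arrays. CrebA fell in dany by 1.08 on the log2 scale (SE 0.294, limma adjusted p = 0.00977), and gave -0.80 for sa, 0.29 for aly and 0.76 for topi (adjusted p = 0.0683, 0.456 and 0.0607). Its second probe, above background on 7 of 13 arrays, gave 0.72 for dany (SE 0.60), so the probes differed in sign. The mean of both probes gave -0.18 for dany (adjusted p = 0.682), and spike-in scaling of the brighter probe -0.39 (adjusted p = 0.685). The call in dany fell just short of 2-fold without control replicate 3 (-0.98), dany replicate 1 (-0.99) or dany replicate 3 (-0.99), with normexp (-0.97), and with scan day (-0.99) or slide as a term. In sa the difference passed without sa replicate 2 (-1.37, adjusted p = 0.0143) and with quantile normalization (-1.13, adjusted p = 0.0340).

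**Figure D5:**
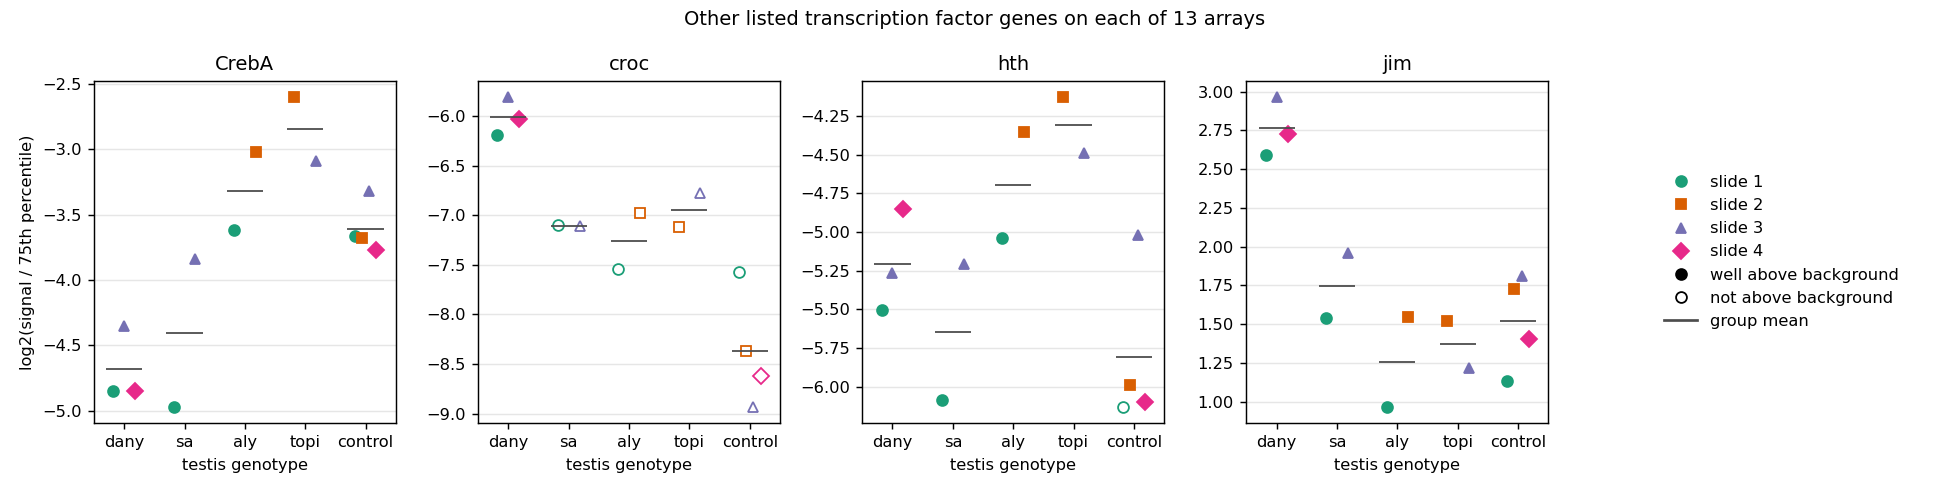
The 4 other transcription factor genes that passed the filter on each of 13 arrays, as log2 of the signal over the array's 75th percentile (y axis), by testis genotype (x axis). Shapes, open symbols and bars are as for the plot of all members. The 3 dany arrays of croc and jim lie above the 10 others, and croc has open symbols on all arrays but those of dany.

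Germline and somatic markers were followed as far as they were matched. Of the 34 listed testis germline genes soti, hale and f-cup were tested, and they stood above background on 13, 12 and 13 of the 13 arrays. Their summed signal was 412% to 565% for dany, 455% to 544% for sa, 779% to 1026% for aly and 854% to 1049% for topi, against 2723% to 3272% in control. The sum was nearly all f-cup, a gene expressed in spermatids, which fell in dany, sa, aly and topi by log2 differences of -2.68, -2.65, -1.80 and -1.69 (limma adjusted p = 1.06e-06, 9.01e-06, 4.00e-05 and 6.43e-05). soti fell in dany (-1.26, adjusted p = 0.000672) and gave 0.26 for sa, 0.55 for aly and -0.48 for topi, none of them called, and the fall in dany was not called with spike-in scaling (-0.58, adjusted p = 0.486). hale was called in no mutant and varied widely between arrays. The 3 tested markers of somatic cyst and hub cells, eya, ptc and puc, summed to 7.65% to 9.14% for dany, 7.35% to 9.21% for sa, 9.24% to 17.0% for aly and 9.95% to 12.2% for topi, against 6.78% to 13.9% in control. The sums overlapped, but eya rose in topi by 1.21 (limma adjusted p = 0.00072) and gave 0.78 for aly, short of 2-fold (adjusted p = 0.0111). The call of eya in topi ended with normexp (0.78), with the mean of its probes (0.93) and with spike-in scaling (1.18, adjusted p = 0.140). puc on control 1, at 9.86%, set the top of the control range, and ptc passed the filter on dim probes through the dany arrays alone. The part of either cell population in the levels of the 5 genes was not tested. wuc, a partner of tMAC and the only matched gene of its list, rose in aly by 2.23 (adjusted p = 5.31e-05) and in topi by 3.05 (adjusted p = 6.24e-06), and gave 0.66 for sa and -0.35 for dany (limma adjusted p = 0.079 and 0.263).

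For each member the 3 named genes with the most similar profile were sought among 170 genes, those of the 360 matched and tested genes whose name is not a bare annotation number. Likeness was the root mean square difference between 2 genes over the 13 arrays, each gene taken relative to its own control mean on the log2 scale. For Blimp-1 the nearest was caps, a cell adhesion gene, at 0.288, followed by the small RNA gene scaRNA:MeU5-C46 and PDZ-GEF at 0.383 and 0.384. For slp1 they were Ilp4 at 0.698, snoRNA:U3:54Aa at 0.764 and sowah at 0.790, whose differences in sa (0.94, 1.11 and 0.66) were all smaller than that of slp1. For eg the nearest was tor, a receptor tyrosine kinase gene, at 0.888, with 2.57 for dany, -0.35 for sa, -2.60 for aly and -2.69 for topi. The next were lncRNA:cherub at 1.20 and sle at 1.31. For btd they were mthl11 at 0.898, Ost48 at 0.973 and eIF3l at 1.00. For grh the nearest, Hsc70-1 at 1.44, Trpml at 1.74 and f-cup at 1.76, were the least close of all, and the values of grh in the mutants were at the floor.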

How the data were processed

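Total RNA of pooled testes was labelled with Cy3, 1 array per sample, and arrays were quantified with Agilent Feature Extraction 10.7.3.1, per the file headers. Each deposited scanner file gives linear spot intensity (background subtracted and detrended within the array, with no scaling between arrays) and a flag for signal well above background. The series table has deposited log2 values, and how they were made is not given in the sources used here. Their ranks followed the raw signal of the same array (Spearman 0.989 to 1.00). Scale and direction are log2 with higher meaning brighter, and the array medians are nearly equal (7.89 to 7.90), with the centring otherwise unknown. They served as an alternative.

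Spots of a probe were averaged without outlier flags, and log2 of the signal over the 75th percentile of non-control spots gave the level. No spot was saturated. A probe was kept if 1 genotype or more had it above background throughout, and the brightest kept probe stood for a target, leaving 19758 targets. Names came from RefSeq accessions (393 probes) and clone or other synonyms (153); 3 probes matched several genes and 31613 none. limma 3.58.1 in R 4.3.3 fitted 1 mean per genotype to all 13 arrays, and contrasts were tested two-sided with Benjamini-Hochberg adjustment. The fit was tested on simulated data. Precision is limited by how many arrays there are: the median SE was 0.306 for dany and 0.347 for each other mutant against control.

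The members and lists were chosen with earlier results of these data known. Named genes were the 5 members, tested genes of the lists and, per member, the 3 nearest profiles. Alternatives were normexp background correction (offset 50, on median signals, in place of mean signals, which were not used here), median, quantile and spike-in scaling, the deposited values, slide, scan day or replicate number as a term, filters, mean of probes, and leaving out each array. The labels describe the replicates as biological. The title of control 4 was used, as another of its labels gives replicate 3. No gene of the lists for muscle, fat body, accessory gland and blood cells was matched, and of the cuticle list Cpr60D and Cpr49Ag were tested, with sums of 72.6% to 88.2% for dany, 48.4% to 57.8% for sa, 29.3% to 91.4% for aly and 7.98% to 11.3% for topi, against 13.3% to 32.7% in control. Of these, Cpr60D was called higher in dany and sa and lower in topi (short of 2-fold there with normexp), and Cpr49Ag was called in no mutant.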

Additional observations from a re-analysis of the deposited data

Results flagged for a closer look

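Within the 4 control arrays, slp1 on control 1 stood at -4.57 on the log2 scale, below the other 3 at -3.86 to -3.72, a gap that passed Dixon's criterion for 4 values. hth on control 3 stood at -5.02, above the other 3 at -6.13 to -5.99. Chance gives such a gap in about 1 group in 20, and all members and tested listed genes were examined in this way.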

How the results depend on the processing

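The number of all targets called (limma) was within 1.5 times its main value under each alternative except 2: with spike-in scaling it was 3959 for sa and 7005 for aly (8243 and 11781 otherwise), and among the 12179 targets above background on every array, which leaves fewer to test and drops grh, btd and eg, it was 4568 for dany, 4803 for sa, 7103 for aly, 7532 for topi and 7170 for dany against the mean of the 3 others. Leaving out 1 array gave 8199 to 9264 for dany, 6364 to 8823 for sa, 10975 to 12267 for aly, 10887 to 12842 for topi and 11684 to 12732 for dany against the 3 others. Replicate numbers were not taken to pair the arrays, since not every same-numbered pair had a residual correlation above 0.1. Of 21 pairs 12 did, with a range of -0.0473 to 0.744. Of 12 arrays 9 correlated best with their own number, a hint from the data. Some same-numbered arrays also shared a slide. The median correlation was 0.554 for pairs on one slide, against 0.0334 for same-numbered pairs on other slides. Many of the latter include a topi array, and pairs with topi lay near 0 even on one slide (-0.0473 to 0.0591). Without topi the range was 0.449 to 0.744 on one slide and -0.0307 to 0.674 for same-numbered pairs on other slides. The 2 medians thus do not separate slide from number. In genotypes with 2 arrays the residuals mirror each other, so these pairs are not independent. With the replicate block 8782, 8001, 11639 and 12306 targets were called in dany, sa, aly and topi and 12460 for dany against the others. The counts of members did not change, but overlap was judged on levels without the block, so only the 2-fold limit could alter them. The share of rises among calls was 64.1% for dany, but 33.4% with median, 87.6% with spike-in and 51.5% with normexp processing; 64.5% for sa, but 50.5%, 52.9% and 52.7%; 65.7% for aly, but 44.8% with spike-in scaling; and 46.4% for dany against the others, but 29.4% with median and 86.0% with spike-in scaling. The median of all targets in dany was -0.69 with median and 0.75 with spike-in scaling, so levels of slp1 and Blimp-1 for dany have no settled sign. No counted member difference changed sign under any alternative run. With normexp background correction croc turned to -0.050 for dany, -0.035 for sa and -0.19 for dany against the others, and ptc to -0.28 in the last; the cause was not tested. Scan day as a term was added after the data were seen.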
